A study of Homo sapiens with 6 samples.

Results

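Autotaxin and the receptors of its product were followed in SKNMC cells that received wild-type or IDR-deleted NFIB. The set holds 7 genes, ENPP2, LPAR1, LPAR2, LPAR3, LPAR4, LPAR5 and LPAR6, of 22604 in the count table, and all 7 were found by symbol. ENPP2 was chosen by its counts, because its RNA was higher with wild-type NFIB than with the empty vector, and the receptors were added by family name. SKNMC is a Ewing sarcoma cell line. The 3 groups of 2 libraries each carried an empty expression vector (EV), a vector for V5-tagged wild-type NFIB (NFIB WT) or a vector for V5-tagged NFIB without its intrinsically disordered region (IDR) (NFIB ΔIDR). Cells of every group also keep their own NFIB gene and the EWS-FLI1 fusion, and the study's methods describe lentiviral delivery with puromycin selection. No source used here names the promoter of the vectors or says whether a line is 1 clone.

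ENPP2 encodes autotaxin, a secreted lysophospholipase D that cleaves the head group from lysophosphatidylcholine and so makes lysophosphatidic acid (LPA) outside the cell. LPA acts through G protein-coupled receptors of separate origins. LPAR1, LPAR2 and LPAR3 belong to the EDG family, together with the receptors for sphingosine 1-phosphate, and LPAR4, LPAR5 and LPAR6 are closer to the purinergic P2Y receptors. Through Gi, Gq and G12/13 proteins these receptors are known to act on calcium, cell shape and migration, and phosphatases at the cell surface remove LPA.

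RNA levels are given as CPM, counts scaled to a common library size with TMM factors, and a group's error is the SD of its 2 libraries. The libraries held 6664231 to 8465572 counts, so 1 CPM stood for 6.67 to 8.37 counts. NFIB itself was at 176 and 145 CPM in EV, 969 and 1051 CPM in NFIB WT and 2227 and 2332 CPM in NFIB ΔIDR libraries, so NFIB RNA was above EV with both constructs and highest with the deletion. The NFIB WT pair was less alike than the others, with an SD of the log2 difference across genes of 0.38 against 0.28 in each other pair, and NFIB WT replicate 1 lay apart on the first 2 principal components. Of 8 Ewing sarcoma markers, 7 were in the table and all 7 exceeded 1 CPM in every library. Their summed level was 2229 to 2247 CPM with EV, 2608 to 2721 CPM with NFIB WT and 2090 to 2102 CPM with NFIB ΔIDR. Most of that sum was CCND1, at 1257, 1580 and 1182 CPM in the same order. NPY1R (228 CPM with EV and 394 CPM with NFIB WT) and NKX2-2 (35.4 and 39.1 CPM) also had higher means with NFIB WT than with EV. STEAP1, PRKCB, NR0B1 and GLI1 had lower means with NFIB WT than with EV, and the median log2 fold change of the 7 in that comparison was -0.08. Of 8 markers of blood, endothelium, epithelium and liver, PTPRC (257 CPM with EV) and EPCAM (6.97 CPM) exceeded 1 CPM in every library, CD3E was at 0 with EV and NFIB WT, and the summed level was 266 to 269, 261 to 284 and 294 to 323 CPM in the 3 groups. The part of these marker levels in the results was not tested.

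The RefSeq promoter table (build GRCh38.p14) held windows for 6 of the 7 genes, all receptors. For 4 of them, LPAR1, LPAR2, LPAR3 and LPAR4, a window of 250 bases lay wholly before the gene's outermost start. The windows of LPAR1 and LPAR3, the receptors with the widest difference between the constructs, are printed with that of LPAR4, the one window of the 4 that holds TGGCA, the NFI half-site. Windows at starts inside the genes, which are not printed, held it once in 2 of those of LPAR1 and once each in those of LPAR5 and LPAR6. The printed windows are chr9:111038999-111039248 (reverse strand), chr1:84893207-84893456 (reverse strand) and chrX:78747470-78747719 (forward strand). Each is read 5′ to 3′ towards the start, with TGGCA on either strand in capitals.
LPAR1: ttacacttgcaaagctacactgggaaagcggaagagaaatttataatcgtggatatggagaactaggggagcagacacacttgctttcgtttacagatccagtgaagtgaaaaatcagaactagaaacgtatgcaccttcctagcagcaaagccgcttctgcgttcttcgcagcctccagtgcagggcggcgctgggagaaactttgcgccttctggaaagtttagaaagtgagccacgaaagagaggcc
LPAR3: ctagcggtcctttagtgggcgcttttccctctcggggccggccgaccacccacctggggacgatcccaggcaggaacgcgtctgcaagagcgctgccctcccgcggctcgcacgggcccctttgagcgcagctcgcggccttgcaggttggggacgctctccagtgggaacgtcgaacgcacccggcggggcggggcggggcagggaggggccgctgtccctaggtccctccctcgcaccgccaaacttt
LPAR4: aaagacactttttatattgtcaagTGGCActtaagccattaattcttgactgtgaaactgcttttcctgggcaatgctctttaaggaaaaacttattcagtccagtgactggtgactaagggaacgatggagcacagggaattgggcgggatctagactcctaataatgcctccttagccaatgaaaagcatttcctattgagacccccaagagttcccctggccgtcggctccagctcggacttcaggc
TGGCA was in 41% of all 35116 windows of this length. A match describes the letters of a window only.

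ENPP2 RNA was lowest with EV, intermediate with NFIB ΔIDR and highest with NFIB WT. The gene lies on chromosome 8 of hg19 from 120569326 to 120685693 on the reverse strand. It had 8 and 11 counts with EV, 57 and 61 in NFIB WT and 22 and 16 in NFIB ΔIDR. In CPM these are 1.09 and 1.31, 8.55 and 7.86, and 2.98 and 2.36. The libraries of the 3 groups did not overlap. In NFIB WT against EV 21.7% of all genes were likewise separated and higher, in NFIB ΔIDR against EV 26.2%, and in NFIB WT against NFIB ΔIDR 27.6%. Exact Poisson 95% intervals, which cover counting error only, ran from 0.471 to 2.35 CPM over the EV libraries, from 6.01 to 11.1 CPM with NFIB WT and from 1.35 to 4.51 CPM with NFIB ΔIDR. They say nothing of the spread between cultures, and the gap between NFIB WT and EV was fixed by the choice of the gene.

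The fitted log2 fold change of ENPP2 was 2.74 (SE 0.28) for NFIB WT against EV, 1.14 (SE 0.35) for NFIB ΔIDR against EV and 1.60 (SE 0.24) for NFIB WT against NFIB ΔIDR. These correspond to 6.69-fold, 2.20-fold and 3.04-fold. No p is given, because the first contrast chose the gene and the others share its libraries. Without NFIB WT replicate 1 the values with NFIB WT were 2.68 and 1.55. In bulk RNA, more cells with a transcript and more RNA per cell cannot be told apart.

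**Figure D1:**
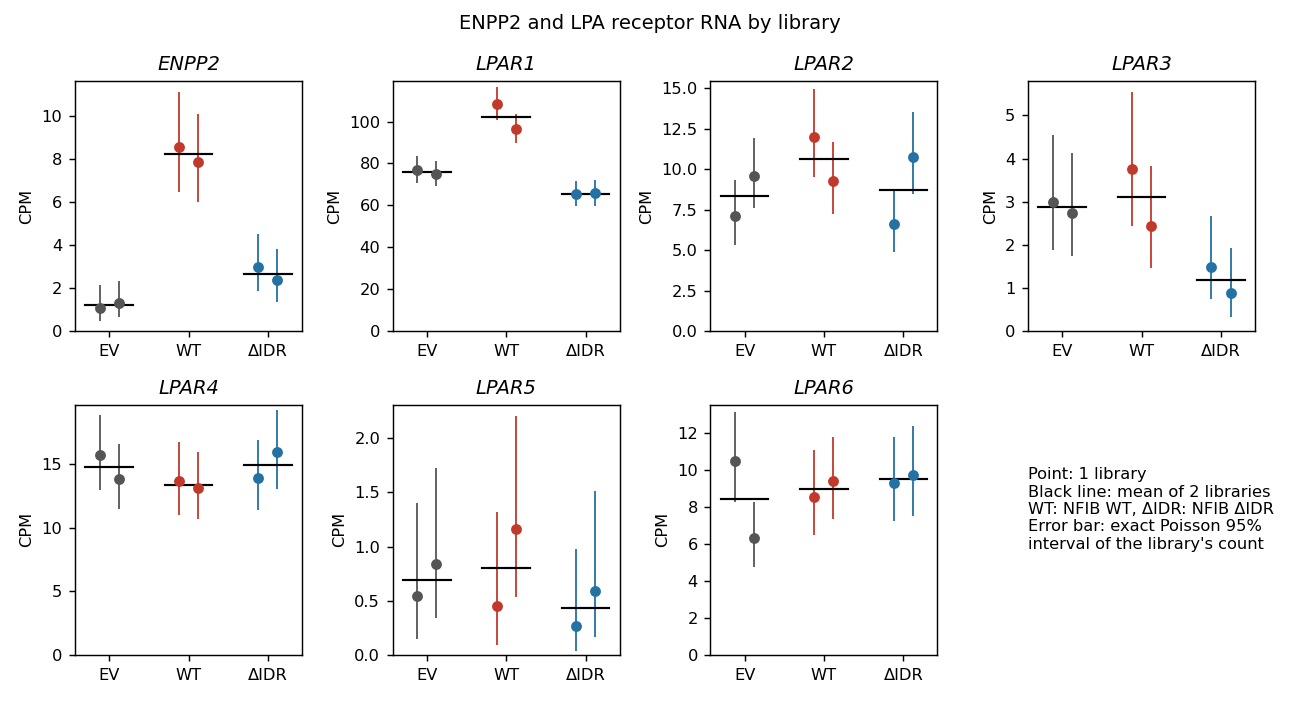
TMM-scaled CPM of ENPP2 and the 6 LPA receptor genes in each library of the 3 groups, with the vertical axes starting at 0. Points are libraries, error bars are exact Poisson 95% intervals of the counts and black lines are group means. The NFIB WT libraries of ENPP2 (8.55 and 7.86 CPM) and LPAR1 (108 and 96.5 CPM) lie above those of the other groups.

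Among the EDG-family receptors, LPAR1 had its highest level with NFIB WT and its lowest with NFIB ΔIDR, and EV lay between. LPAR1, the most widely expressed LPA receptor, lies on chromosome 9 of hg19 from 113635543 to 113800750. It was at 77.0 and 74.9 CPM with EV, 108 and 96.5 CPM in NFIB WT and 65.6 and 65.7 CPM in NFIB ΔIDR. The groups did not overlap. Of all genes, 21.7% were likewise separated and higher in NFIB WT than in EV, and 27.6% higher in NFIB WT than in NFIB ΔIDR. Between NFIB ΔIDR and EV, 27.1% were separated and lower with NFIB ΔIDR. The order of the groups differed from that of ENPP2, whose lowest group was EV. The choice of ENPP2 favoured a low value with EV, so nothing is read from that difference. NFIB WT exceeded NFIB ΔIDR by a log2 fold change of 0.64 (SE 0.10, 1.56-fold, 95% interval 0.42 to 0.86, edgeR adjusted p = 0.00351). In this comparison 10.7% of the 13501 genes tested were called, 5.52% as higher, and LPAR1 was the 1 receptor called of 5 tested. NFIB ΔIDR differed from EV by -0.21 (SE 0.10, 95% interval -0.43 to 0.01, edgeR adjusted p = 0.348). Against EV, NFIB WT gave 0.43 (SE 0.10), with no test since this contrast chose the set.

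The LPAR1 difference between the constructs passed in 10 of 12 alternatives. It was 0.56 without NFIB WT replicate 1. In fits that left a group with 1 library, that library was assumed to vary like those of the other groups, so their p values say little about NFIB WT or NFIB ΔIDR. Without NFIB ΔIDR replicate 1 or 2 it kept its size, 0.64 in both, and did not pass (edgeR adjusted p = 0.0771 and 0.0744). DESeq2 gave 0.65 (adjusted p = 0.000417).

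LPAR3, also of the EDG family, had its lowest values with NFIB ΔIDR. It lies on chromosome 1 from 85277285 to 85358889. It had 22 and 23 counts with EV (3.0 and 2.75 CPM), 25 and 19 in NFIB WT (3.75 and 2.45 CPM) and 11 and 6 in NFIB ΔIDR (1.49 and 0.886 CPM). Both NFIB ΔIDR libraries lay below all others, while EV and NFIB WT overlapped. The log2 fold change was -1.25 for NFIB ΔIDR against EV (SE 0.40, 95% interval -2.13 to -0.36, edgeR adjusted p = 0.176) and 1.34 for NFIB WT against NFIB ΔIDR (SE 0.40, 95% interval 0.45 to 2.22, edgeR adjusted p = 0.0561). Neither passed. Over 12 alternatives the adjusted p of the second ran from 0.00443 to 0.332, and 3 of the 12 passed, among them the fit without NFIB WT replicate 2 (log2 fold change 1.63), which has a lone NFIB WT library assumed to vary like the other groups.

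LPAR2, on chromosome 19 from 19734464 to 19739739, showed no such separation. It was at 7.10 and 9.56 CPM with EV, 12 and 9.27 CPM in NFIB WT and 6.63 and 10.8 CPM in NFIB ΔIDR. All groups overlapped, and the spread within the NFIB ΔIDR pair was wider than the difference between group means. NFIB WT against NFIB ΔIDR gave 0.29 (SE 0.25, 95% interval -0.26 to 0.84, edgeR adjusted p = 0.484), and NFIB ΔIDR against EV gave 0.04 (SE 0.26, 95% interval -0.52 to 0.61, edgeR adjusted p = 0.963).

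Of the P2Y-like receptors, LPAR4 had the highest level per kb of gene model in each group. It lies on chromosome X from 78003206 to 78014211 and was at 15.7 and 13.9 CPM with EV, 13.6 and 13.1 CPM in NFIB WT and 13.9 and 15.9 CPM in NFIB ΔIDR. Both NFIB WT libraries lay just below all others, a separation that 21.2% of all genes showed against EV and 27.8% against NFIB ΔIDR. NFIB WT against NFIB ΔIDR gave -0.16 (SE 0.15, 95% interval -0.49 to 0.18, edgeR adjusted p = 0.536) and NFIB ΔIDR against EV gave 0.02 (SE 0.15, 95% interval -0.31 to 0.34, edgeR adjusted p = 0.973).

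LPAR6 lies on chromosome 13 from 48963703 to 49018840, on the strand opposite to RB1, and its main transcript sits inside intron 17 of RB1. The strand setting of the counting is unknown here, so reads of unspliced RB1 RNA may be among its counts. LPAR6 was at 10.5 and 6.33 CPM with EV, 8.55 and 9.40 CPM in NFIB WT and 9.34 and 9.74 CPM in NFIB ΔIDR. The EV pair spanned the libraries of both constructs. RB1, the retinoblastoma tumour suppressor, had 205 ± 18.2 CPM in EV, 196 ± 21.7 CPM in NFIB WT and 198 ± 7.84 CPM in NFIB ΔIDR (SD, n = 2). For LPAR6 the log2 fold change was -0.08 for NFIB WT against NFIB ΔIDR (SE 0.23, 95% interval -0.59 to 0.42, edgeR adjusted p = 0.847) and 0.20 for NFIB ΔIDR against EV (SE 0.23, 95% interval -0.31 to 0.70, edgeR adjusted p = 0.755).

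LPAR5, on chromosome 12 from 6728001 to 6745126, was near the limit of detection and did not pass the filter on low counts. It had 4 and 7 counts with EV, 3 and 9 in NFIB WT and 2 and 4 in NFIB ΔIDR. Exact Poisson intervals of single libraries reached 2.20 CPM, and no difference was detectable at this depth.

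In all, LPAR1 was the receptor called between the constructs. Between NFIB ΔIDR and EV, edgeR called 0 of the 5 receptors tested, where 0.652% of all genes were called. In that comparison 1 receptor had an unadjusted p under 0.05, a threshold for which no share over all genes was counted. DESeq2 called 0 receptors there and 80 genes in all, and gave no adjusted p for LPAR3. The libraries of 2 of the 6 receptors, LPAR1 and LPAR3, were lower with NFIB ΔIDR than with EV without overlap, as were those of 27.1% of all genes. The median log2 fold change of the 5 receptors was 0.29 for NFIB WT against NFIB ΔIDR and 0.02 for NFIB ΔIDR against EV, against medians of -0.00087 and 0.0013 over all genes tested. The 0.29 is the value of LPAR2, which was not called. Between the constructs the 5 values ran from -0.16 (LPAR4) to 1.34 (LPAR3), so no common shift is read from the median.

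**Figure D2:**
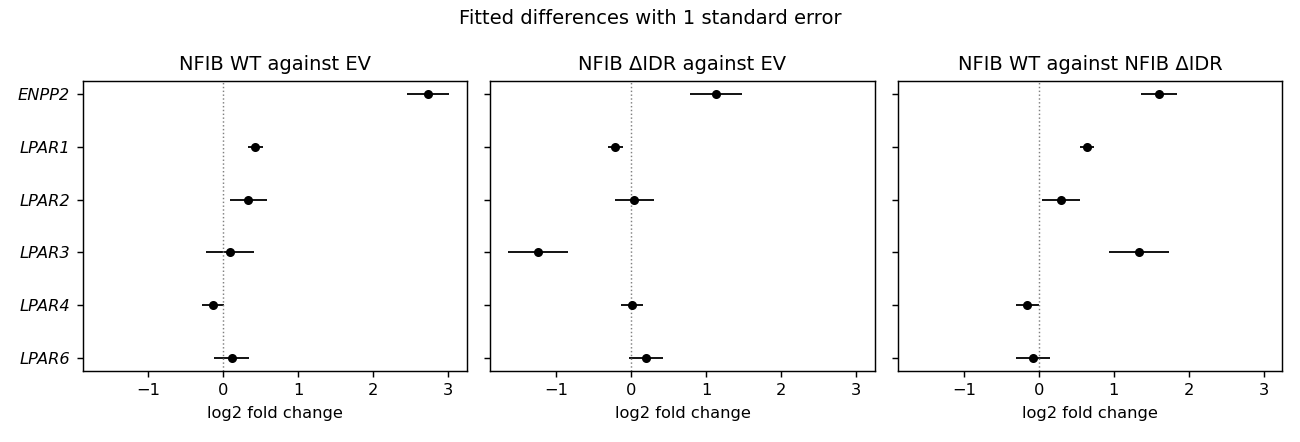
Fitted log2 fold change (horizontal axis) of ENPP2 and the 5 receptors that passed the filter in the 3 comparisons, with error bars of 1 SE. ENPP2 lies right of 0 in each panel (2.74, 1.14 and 1.60), and LPAR1 has a narrow error bar at 0.64 between the constructs.

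Per length of the gene model, LPAR1 was by far the most abundant receptor. In CPM per kb with EV it was at 24.0 ± 0.459 (SD, n = 2), followed by LPAR4 at 5.22 ± 0.458 and LPAR2 at 4.64 ± 0.970, then LPAR6 at 2.44 ± 0.854 and LPAR3 at 1.67 ± 0.105, and last ENPP2 at 0.350 ± 0.0458 and LPAR5 at 0.237 ± 0.0704. The neighbours LPAR4 and LPAR2, and LPAR6 and LPAR3, did not differ beyond their spread. With NFIB WT, ENPP2 stood above LPAR3 in this order, at 2.39 ± 0.143 CPM per kb next to 2.60 ± 0.174 for LPAR6 and 1.80 ± 0.535 for LPAR3. With NFIB ΔIDR it was at 0.777 ± 0.126 beside 0.690 ± 0.248 for LPAR3. Among all genes tested, the level of ENPP2 per kb stood at percentiles 2.46 and 3.62 with EV, 27.1 and 25.3 in NFIB WT and 10.3 and 7.52 in NFIB ΔIDR, so it stayed in the lower part of the range in each group. LPAR1 made up 57.7 to 68.0% of the summed receptor level per kb over the 6 libraries, LPAR2 10.2 to 16.7%, LPAR4 9.54 to 15.7%, LPAR6 4.87 to 8.18%, LPAR3 1.43 to 4.50% and LPAR5 0.281 to 0.886%. The LPAR1 share was 62.7 and 62.9% with EV, 67.7 and 68.0% in NFIB WT and 62.8 and 57.7% in NFIB ΔIDR.

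**Figure D3:**
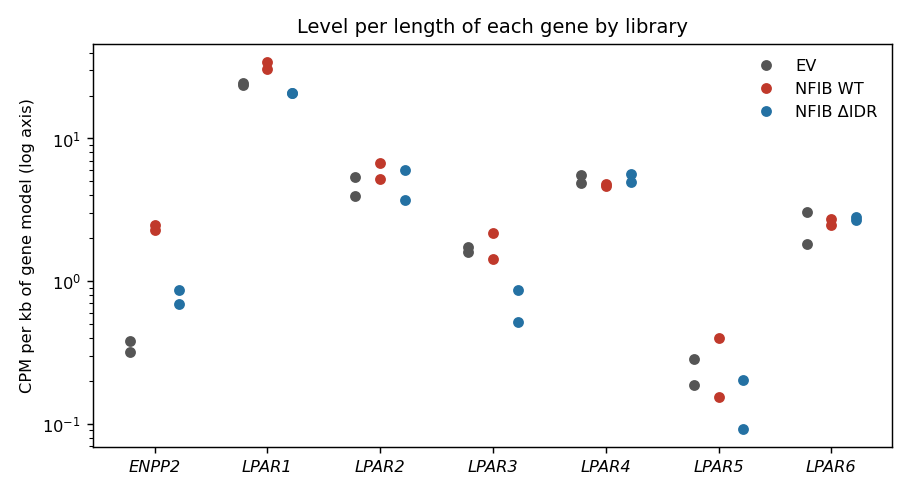
CPM per kb of gene model on a log axis for each gene, with a point for each library coloured by group. LPAR1 lies above 20 CPM per kb in every library, and ENPP2 moves from about the level of LPAR5 with EV to that of LPAR6 with NFIB WT.

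Other genes of LPA metabolism and signalling were taken from 6 lists with 76 genes, of which 69 were in the table and 50 passed the filter. Between NFIB WT and NFIB ΔIDR, 6 of the 50 (12%) were higher and 3 (6%) were lower with NFIB WT at an edgeR adjusted p under 0.05, where 5.52% and 5.19% of all genes were. The 3 lower genes include CXCL8, which passed the filter only through its counts with NFIB ΔIDR. Between NFIB ΔIDR and EV, edgeR called 0 of the 50, where 0.652% of all genes were called, so a count of 0 says little. DESeq2 called 0 of the 50 there and 80 genes in all. In that comparison 5 of the 50 had an unadjusted p under 0.05. The share of all genes under that unadjusted threshold was not counted, so nothing is read from the 5. Between NFIB WT and EV, 3 were called, all higher (6%), beside 0.615% of all genes called and 0.452% called higher, and nothing is read from this count because that contrast chose the set. The 9 calls between the constructs depended on the libraries. There were 2 calls without NFIB ΔIDR replicate 1 or 2 and 20 without NFIB WT replicate 2, and DESeq2 called 3.

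Of 10 tested genes that produce LPA or its precursors, 2 rose and 1 fell with NFIB WT against NFIB ΔIDR. LIPI and LIPH encode phospholipases that make LPA from phosphatidic acid, and LIPI is also known as an antigen of Ewing sarcoma. LIPI was at 76.6 and 72.2 CPM with EV, 126 and 103 CPM in NFIB WT and 80.6 and 79.1 CPM in NFIB ΔIDR (NFIB WT against NFIB ΔIDR log2 fold change 0.51, SE 0.11, edgeR adjusted p = 0.0172). Both NFIB WT libraries lay above the rest. LIPH had a log2 fold change of 0.98 (SE 0.23, edgeR adjusted p = 0.0254). PLA2G4A, the cytosolic phospholipase that releases arachidonic acid, was lower with NFIB WT (log2 fold change -0.75, SE 0.19, edgeR adjusted p = 0.0284). AGK and GPAT4, which make LPA inside the cell, had group means of 85.0 to 91.5 CPM and 156 to 163 CPM, and neither passed.

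Of 10 tested genes that remove LPA or are related to such enzymes, PLPP1 rose. PLPP1, a surface phosphatase that dephosphorylates LPA, was at 8.94 ± 0.872 CPM with EV, 14.2 ± 0.822 CPM in NFIB WT and 8.45 ± 1.62 CPM in NFIB ΔIDR (SD, n = 2), with a log2 fold change between the constructs of 0.76 (SE 0.18, edgeR adjusted p = 0.0244). AGPAT5 and AGPAT3, acyltransferases that use LPA, and the phosphatase gene PLPP5 were the most abundant of this list and did not pass.

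Of the relatives of autotaxin, 5 were in the table and 2 passed the filter. These 2, ENPP1 and ENPP3, went in opposite directions between the constructs. ENPP1, which makes pyrophosphate from nucleotides outside the cell, was at 86.3 and 84.5 CPM with EV, 151 and 122 CPM in NFIB WT and 58.4 and 65.1 CPM in NFIB ΔIDR. No groups overlapped, and 21.7 to 27.6% of all genes were separated in the same direction in each comparison. NFIB WT exceeded NFIB ΔIDR by a log2 fold change of 1.14 (SE 0.12, edgeR adjusted p = 0.000621). ENPP3, another ectonucleotidase, was at 24.0 ± 1.53 CPM with EV, 20.8 ± 1.35 CPM in NFIB WT and 29.7 ± 1.03 CPM in NFIB ΔIDR (SD, n = 2). Its log2 fold change for NFIB WT against NFIB ΔIDR was -0.52 (SE 0.12, edgeR adjusted p = 0.0246). Like ENPP2, ENPP1 had its highest values with NFIB WT. Its difference between NFIB ΔIDR and EV did not pass (log2 fold change -0.47, SE 0.12, edgeR adjusted p = 0.107).

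None of the 5 tested related receptors, among them S1PR2, S1PR3 and S1PR5 for sphingosine 1-phosphate, passed between the constructs in edgeR. Of 15 tested genes in the signalling list, GNA12, a G protein alpha subunit, rose with NFIB WT, at 58.5 ± 7.86 CPM against 41.7 ± 0.876 CPM (SD, n = 2, log2 fold change 0.48, SE 0.12, edgeR adjusted p = 0.0284). GNAS and GNAI3, other alpha subunits of high level in that list, did not pass. Of 8 tested response genes, FOS rose. FOS, an immediate early gene that encodes part of AP-1, had a log2 fold change of 1.51 between the constructs (SE 0.15, edgeR adjusted p = 0.000592). CXCL8, a chemokine gene, had 5 and 8 counts with EV, 5 and 3 in NFIB WT and 17 and 23 in NFIB ΔIDR. It passed the filter on low counts through NFIB ΔIDR alone, so its call as lower with NFIB WT, the other call in this list, is no support for a difference. ENPP1 and FOS passed in all 12 alternatives. The other 7 genes called each lost the call without NFIB ΔIDR replicate 1 or 2, and PLA2G4A, ENPP3 and GNA12 also lost it without either EV library.

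**Figure D4:**
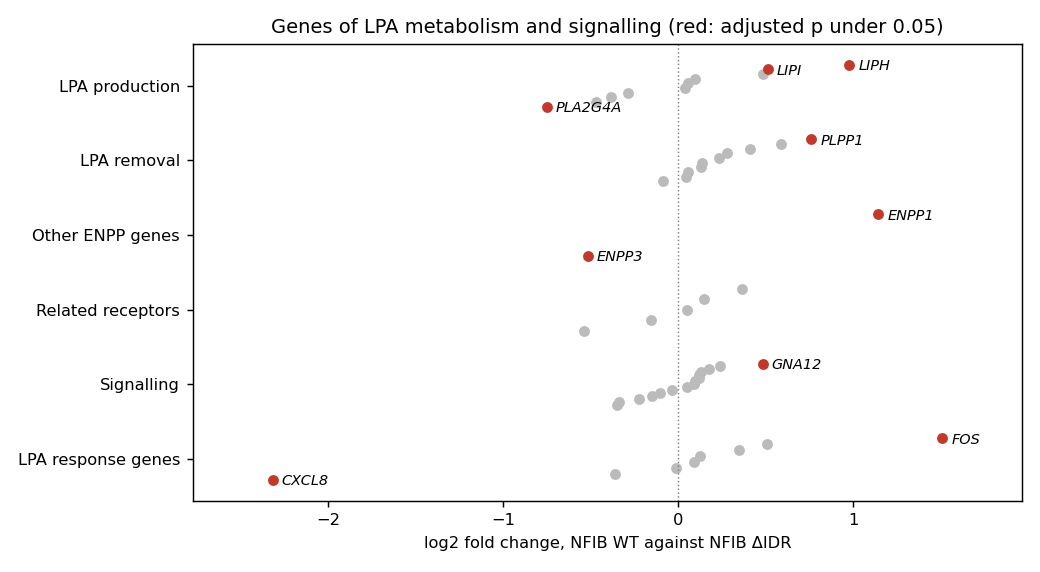
Fitted log2 difference between NFIB WT and NFIB ΔIDR (horizontal axis, positive where NFIB WT was higher) for the 50 tested genes of 6 lists on LPA metabolism and signalling (vertical axis). Each point is a gene and red points passed at an adjusted p under 0.05. FOS lies at 1.51 and ENPP1 at 1.14, and the red point at -2.31 is CXCL8, which passed the filter through NFIB ΔIDR alone.

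The 5 genes whose log2 CPM profile over the 6 libraries was closest to that of ENPP2, by root mean square distance after centring, were ARHGEF37 (0.405), ANGPTL4 (0.413), PGF (0.489), FOS (0.538) and LOC100507377 (0.551), of 13453 genes compared. ANGPTL4, which encodes an inhibitor of lipoprotein lipase, was at 7.59 ± 1.43 CPM with EV, 25.4 ± 0.503 CPM in NFIB WT and 9.33 ± 0.375 CPM in NFIB ΔIDR (SD, n = 2). PGF, a growth factor of the VEGF family, was at 2.4 ± 0.496 CPM in EV, 6.81 ± 0.340 CPM in NFIB WT and 3.76 ± 0.531 CPM in NFIB ΔIDR libraries. Since ENPP2 was chosen for its level with NFIB WT, a like profile had to be high there too. ARHGEF37 rests on 6, 33 and 10 counts summed over the 2 libraries of EV, NFIB WT and NFIB ΔIDR. LOC100507377 rests on 14, 37 and 17 counts in the same order. These 2 genes passed the filter on low counts through NFIB WT alone, so their likeness to ENPP2 is no support for a shared pattern.

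**Figure D5:**
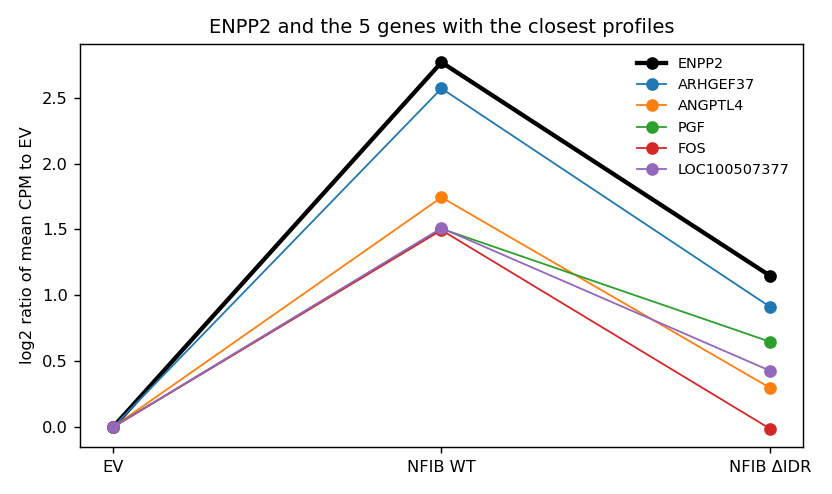
Log2 ratio of mean CPM to the mean with EV (vertical axis) in the 3 groups for ENPP2 (black) and the 5 genes with the closest profiles. Lines join the group means of a gene. All 6 genes are highest with NFIB WT, which the choice of ENPP2 and of like profiles fixed.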

How the data were processed

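RNA-seq of SKNMC cells was analysed in 3 groups of 2 libraries. Total RNA was made into CORALL libraries. The authors converted reads with CASAVA 2.19, aligned them to hg19 with STAR 2.4.0h, used featureCounts for RefSeq genes, and deposited unnormalized counts beside a gene length in bp. Settings for strand, multi-mapping and molecular identifiers are not given in sources used here. The study's methods name DESeq2 for its own comparisons.

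From the counts, genes were kept with filterByExpr of edgeR 4.0.16 (minimum count 10, minimum total 15) in R 4.3.3, with TMM factors and the quasi-likelihood F test, with all 6 libraries entered in 1 fit of group means. Benjamini-Hochberg adjustment ran across 13501 tested genes, at a threshold of 0.05. The study describes biological duplicates, and the p values set group differences against a spread within such pairs, pooled over the groups. Sources used here do not say whether the duplicates were infected separately, so variation between infected lines may not be covered. Where a library was left out, its group's lone library was assumed to vary like the other groups. CPM per kb divides by the deposited length. Intervals are at 95%. Gene coordinates come from GENCODE lifted to hg19. DESeq2 1.42.0 was an alternative, with other scaling, filters, 2-group fits, a replicate block, the study's threshold and each library left out. The edgeR and DESeq2 fits were tested on simulated data for NFIB ΔIDR against EV alone, with the same dispersion for every gene.

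The members and lists were chosen with earlier results of these data known. Genes were named by rule: the members, NFIB, RB1, up to 4 called and 3 most abundant genes per list, and the 5 profiles closest to ENPP2 (prior count 2, mean of at least 1 CPM). Figures used matplotlib 3.10.9 in Python 3.11.15.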

Additional observations from a re-analysis of the deposited data

How the results depend on the processing

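Leaving out a library gave ENPP2 log2 fold changes of 2.63 to 2.89 for NFIB WT against EV, 0.95 to 1.28 for NFIB ΔIDR against EV and 1.46 to 1.79 for NFIB WT against NFIB ΔIDR. Its direction for NFIB WT against EV was fixed by the choice of the gene, and the other comparisons share libraries with that one. These ranges are therefore no sign of stability. Counts of called genes moved more, and the cause was not tested. For NFIB WT against EV the 83 genes became 541 without a filter, 13 with 2 groups only, 524 at a fold of 1.5 and unadjusted p under 0.05, and 9 to 3051 without a library. The 88 for NFIB ΔIDR against EV became 550, 1883, 644 and 4 to 1853 in the same order. The 1446 between the constructs became 2280 without a filter, 680 with 2 groups only, 726 in DESeq2 and 109 to 4405 without a library. The LPA lists gave 7, 1, 9 and 0 to 20 in place of 3 for NFIB WT against EV, 2, 5, 1 and 0 to 5 in place of 0 for NFIB ΔIDR against EV, and 3 in DESeq2, 4 with 2 groups only and 2 to 20 without a library in place of 9 between the constructs. For NFIB WT against EV and between the constructs the highest counts came without NFIB WT replicate 2. The lowest came without EV replicate 1 (9 genes) and without NFIB ΔIDR replicate 2 (109 genes). For NFIB ΔIDR against EV, 1842 and 1853 genes were called without NFIB WT replicate 1 or 2, and 4 or 5 without any other library.

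LPAR3 passed for NFIB ΔIDR against EV with 2 groups only (log2 fold change -1.25, edgeR adjusted p = 0.0234) and without NFIB WT replicate 1 or 2 (edgeR adjusted p = 0.0326 and 0.0315), and between the constructs without a filter (edgeR adjusted p = 0.009).

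The labels give same-numbered libraries a shared number, and sources used here do not say whether they were made together. Their deviations correlated by 0.15, 0.02 and 0.05 over the 3 pairs of groups. With a replicate block the called genes were 188 for NFIB WT against EV, 241 for NFIB ΔIDR against EV and 2092 between the constructs. With the block LPAR1 had 0.64 (edgeR adjusted p = 0.00146) and LPAR3 1.36 (edgeR adjusted p = 0.0323) between the constructs. At 8 and 11 counts of ENPP2 with EV, depth limits how precisely its differences are measured, and LPAR5, with fewer counts, was not tested.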
